A study of Mus musculus with 11 samples.

Results

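The 39 genes described here are genes known for their work in germ cells and meiosis, taken by name from a table of RNA-seq counts that holds 55291 genes. All 39 were in the table, and 35 had enough counts to be tested. E14 mouse embryonic stem cells were cultured feeder-free in serum with LIF, a GSK inhibitor and a MEK inhibitor. In 2 independently targeted lines, whose columns carry the codes 10E and 11D, the histone chaperone subunit SPT16 bears a C-terminal V5 tag and an auxin-inducible degron (AID), a tag that makes a protein a target for destruction when the auxin indole-3-acetic acid (IAA) and the plant F-box protein TIR1 are both there. SPT16 and SSRP1 together form FACT, which handles nucleosomes during transcription and replication.

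The tagged cells were kept for 24 h with 500 nM IAA or with a matched amount of its solvent ethanol (EtOH), and a line without the tag received IAA alone. The table gave 4 tagged EtOH libraries (2 of 10E, 2 of 11D), 3 tagged IAA libraries (1 of 10E, 2 of 11D) and 3 untagged IAA libraries. Each line is a single code with no more than 2 libraries per treatment in the tagged lines, the codes could not be tied to the clone numbers of the labels, and the columns named TIR1 were taken as the untagged line. SPT16 protein was not measured in these libraries, so the depletion itself was not checked here. Libraries held between 3100127 and 13510163 counts. Levels are given in CPM, read counts brought to a common library size with TMM scaling, differences are log2 fold changes ± standard error (SE) from edgeR, and a gene was called at a false discovery rate (FDR) under 0.05. The table pooled over all cells of a library, so a change in the share of cells that hold a transcript and a change in its amount per cell cannot be told apart.

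Germ cells are set apart early in the embryo, silence transposons with the help of piRNAs (small RNAs loaded onto PIWI proteins), and then enter meiosis, in which homologous chromosomes break, pair along the synaptonemal complex and recombine. Many of the genes for these steps are kept at low levels in embryonic stem cells by promoter DNA methylation and by a variant Polycomb complex, whose subunits MGA, MAX and E2F6 bind DNA. A number of germline proteins are copies or relatives of proteins that all cells make, such as the meiotic cohesins.

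After IAA, 20 of the 35 tested genes rose in the tagged lines, 3 fell and 12 were not called. Among all 17904 genes tested, 29.3% rose and 28.1% fell, so a call in itself was common in this comparison. The median log2 fold change was 0.97 over the 35 genes and 0.03 over all genes tested. Genes with almost no reads in EtOH, such as Tex101 and Taf7l, entered the test through their IAA libraries. Low genes without such a rise, such as Piwil4 and Asz1, were left out, so the counts, shares and median favour gains. The same filter acted on all genes. The members, and the lists used below, were chosen with earlier results of these data known. Their shares beside those of all genes are therefore descriptions and not a test of the set. By role, 6 of 7 tested genes of synapsis rose, 5 of 6 of piRNA silencing, 4 of 8 testis and oocyte products, 3 of 6 regulators of germ cell fate, 1 of 2 of meiotic entry, 1 of 3 of recombination and 0 of 3 cohesins. The 3 losses were Smc1b, Tex14 and Rpl10l. In 16 of the 39 genes every tagged IAA library lay above every tagged EtOH library, in 3 (Stag3, Tex14, Rpl10l) every one lay below, and in 20 the groups overlapped. Over all genes tested, 27.7% had IAA libraries entirely above and 24.8% entirely below.

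The genes left untested had almost no reads. Piwil4, a PIWI protein of fetal male germ cells, had 7 counts in the 4 EtOH libraries together, 3 in the 3 IAA libraries and 6 in the untagged line. Asz1, a piRNA factor of the mitochondrial surface, had 3, 0 and 0 counts. Spo11, the enzyme that makes meiotic double-strand breaks, had 2, 0 and 0, and Mei1, which is required for those breaks, had 4, 8 and 5. A loss or a small change in them could not be seen at this depth. A gain as large as that of Tex101, from 5 counts in EtOH to 113 in IAA, would have brought them into the test.

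**Figure D1:**
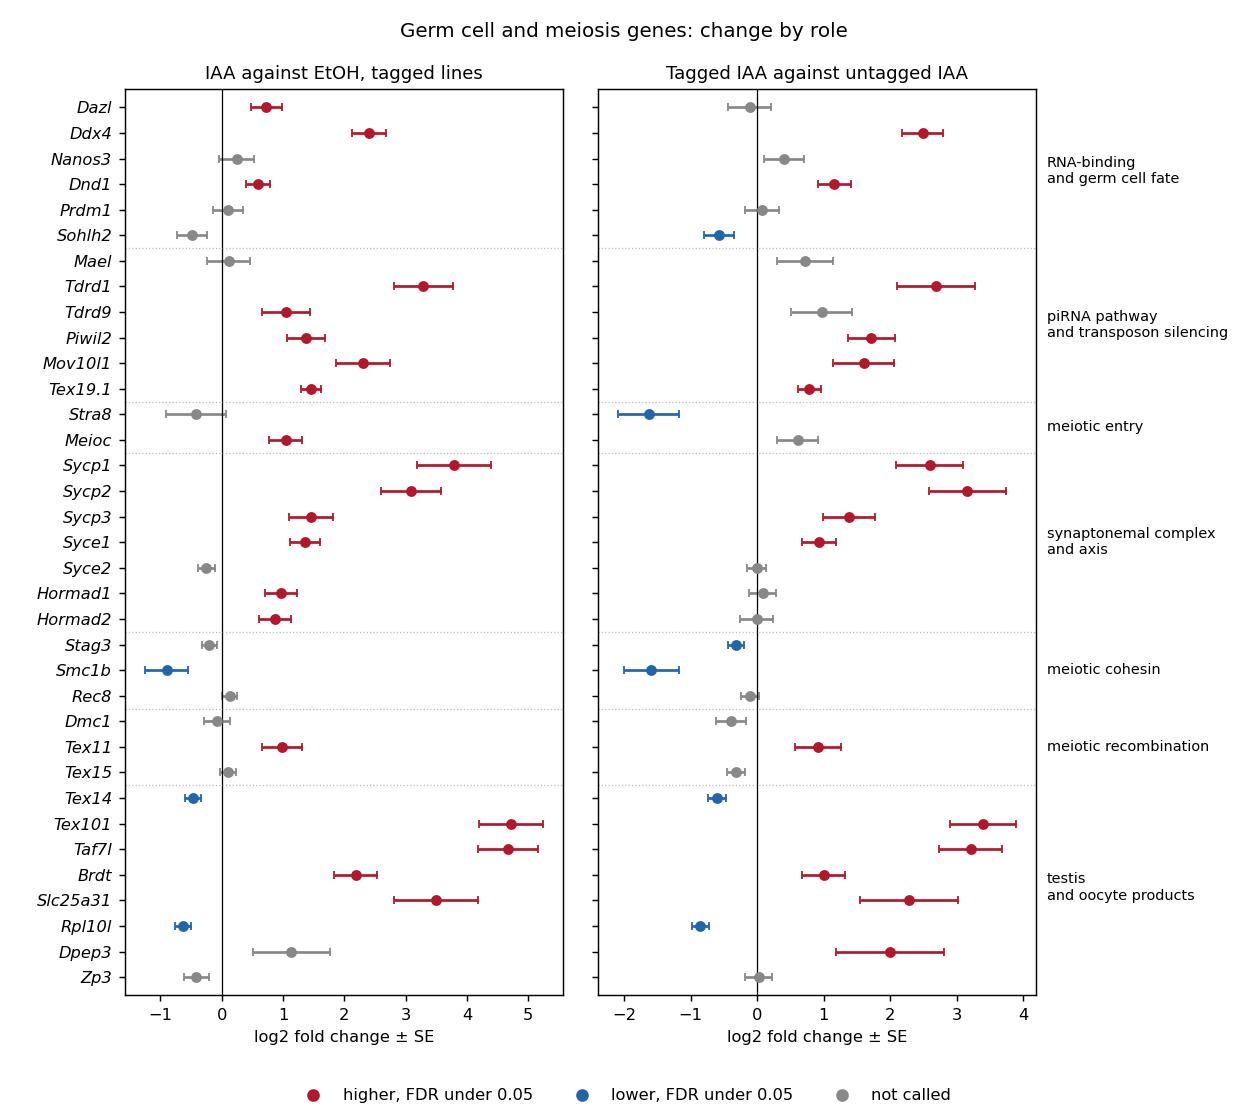
Log2 fold change ± SE of the 35 tested genes, in order of their roles, for tagged IAA against tagged EtOH (left) and tagged IAA against untagged IAA (right). Points are coloured by the call at an FDR under 0.05; Tex101 and Taf7l lie farthest to the right on the left side, at 4.72 and 4.67.

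Promoter sequences were set beside these changes as a description, without a test. RefSeq promoters of the GRCm38.p6 assembly, from 250 bases before to 50 bases after an annotated start, were found for 34 of the 39 genes. The windows were searched on both strands for CACGTG, the E-box that dimers holding MAX are known to bind, for GCGGGAA, a site of E2F type, and for TCACACCT, a site of T-box type. No motif of these is a part of another. CACGTG was present in 14 of the 34 genes (41.2%), against 8.09% of all genes with a promoter in the RefSeq table and 11.6% of the genes tested here. It was present in 10 of 17 genes that rose, in 0 of 3 that fell and in 4 of 11 that were not called. GCGGGAA was present in 10 of the 34 (29.4%), against 5.29% of all genes and 9.5% of those tested, and its holders were 5 of the 17 that rose, 3 of the 3 that fell and 2 of the 11 not called. TCACACCT was present in the Sycp3 and Brdt promoters. Of the genes that rose, Tex101, Sycp2, Tex19.1, Syce1, Hormad2 and Dazl held none of these motifs in their windows. The median ratio of observed to expected CpG over the promoters was 0.70, against 0.38 in all promoters and 0.72 in those of the genes tested. The matches describe letters in these windows, and binding was not measured.

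A choice of 7 promoters that each hold a motif shows how the same motifs stood before genes that differed in their change. Each is printed from 5′ to 3′ on the strand of its gene. E-boxes and sites of E2F and T-box type are in capitals, on whichever strand they lie. Ddx4 (chr13:112652261-112652560 on the minus strand) and Slc25a31 (chr3:40708621-40708920 on the plus strand) hold an E-box and an E2F-type site and rose. Taf7l (chrX:134476441-134476740 on the minus strand) and Tdrd1 (chr19:56825959-56826258 on the plus strand) hold an E-box alone and rose. Of the other Tdrd1 windows, chr19:56826025-56826324 holds an E-box alone and chr19:56830462-56830761 none of the motifs. Sycp3 (chr10:88459337-88459636 on the plus strand) holds 2 E-boxes, an E2F-type site and a T-box site and rose. Stag3 (chr5:138280259-138280558 on the plus strand) holds an E-box and an E2F-type site and was not called. Tex14 (chr11:87404815-87405114 on the plus strand) holds an E2F-type site alone and fell.
Ddx4: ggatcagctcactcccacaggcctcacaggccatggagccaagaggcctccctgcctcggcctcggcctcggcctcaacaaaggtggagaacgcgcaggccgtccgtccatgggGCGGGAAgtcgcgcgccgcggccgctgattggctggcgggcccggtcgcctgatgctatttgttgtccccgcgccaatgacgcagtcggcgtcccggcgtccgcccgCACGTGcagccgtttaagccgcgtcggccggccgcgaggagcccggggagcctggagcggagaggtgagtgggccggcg
Slc25a31: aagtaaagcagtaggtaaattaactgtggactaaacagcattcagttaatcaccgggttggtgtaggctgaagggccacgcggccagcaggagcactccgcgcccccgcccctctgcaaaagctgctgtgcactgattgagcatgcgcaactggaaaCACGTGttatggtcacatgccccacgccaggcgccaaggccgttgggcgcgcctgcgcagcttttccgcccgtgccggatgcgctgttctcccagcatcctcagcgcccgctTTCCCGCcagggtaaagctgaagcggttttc
Taf7l: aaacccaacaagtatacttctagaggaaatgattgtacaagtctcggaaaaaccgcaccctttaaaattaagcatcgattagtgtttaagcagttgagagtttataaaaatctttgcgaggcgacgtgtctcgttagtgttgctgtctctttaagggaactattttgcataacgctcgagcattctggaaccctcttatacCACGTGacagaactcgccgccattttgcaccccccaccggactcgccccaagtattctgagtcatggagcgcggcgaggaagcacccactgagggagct
Tdrd1: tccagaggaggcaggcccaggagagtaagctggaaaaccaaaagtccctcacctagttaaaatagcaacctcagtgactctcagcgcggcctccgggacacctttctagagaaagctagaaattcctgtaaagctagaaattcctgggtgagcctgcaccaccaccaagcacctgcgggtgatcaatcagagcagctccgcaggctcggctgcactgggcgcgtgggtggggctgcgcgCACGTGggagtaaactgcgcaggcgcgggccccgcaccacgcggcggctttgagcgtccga
Sycp3: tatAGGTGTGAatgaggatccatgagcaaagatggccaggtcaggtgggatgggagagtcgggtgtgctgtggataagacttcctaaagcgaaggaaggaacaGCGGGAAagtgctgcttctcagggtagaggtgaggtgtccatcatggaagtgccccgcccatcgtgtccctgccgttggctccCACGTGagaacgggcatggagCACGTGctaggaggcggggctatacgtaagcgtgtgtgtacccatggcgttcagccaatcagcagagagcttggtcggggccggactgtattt
Stag3: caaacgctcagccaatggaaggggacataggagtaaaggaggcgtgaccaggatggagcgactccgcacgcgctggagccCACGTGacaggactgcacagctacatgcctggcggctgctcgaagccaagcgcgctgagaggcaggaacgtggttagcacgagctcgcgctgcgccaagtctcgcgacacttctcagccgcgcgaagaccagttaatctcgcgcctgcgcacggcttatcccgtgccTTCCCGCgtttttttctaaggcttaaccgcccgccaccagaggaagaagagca
Tex14: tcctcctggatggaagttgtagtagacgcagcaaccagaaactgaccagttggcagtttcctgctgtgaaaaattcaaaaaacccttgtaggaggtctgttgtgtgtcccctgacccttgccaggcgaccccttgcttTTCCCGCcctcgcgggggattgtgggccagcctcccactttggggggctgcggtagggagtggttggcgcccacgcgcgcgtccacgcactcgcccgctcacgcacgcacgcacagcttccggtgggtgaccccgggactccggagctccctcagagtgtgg

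Of the RNA-binding proteins and regulators of germ cell fate, 3 of 6 rose. Ddx4 (chr13:112598333-112652475, minus strand) encodes the helicase VASA, a classic marker of germ cells. It had 3.67 and 1.78 CPM with EtOH and 16.9 with IAA in line 10E, 1.56 and 3.94 with EtOH and 12.3 and 17 with IAA in line 11D, and 3.47, 3.03 and 2.33 without the tag. All IAA libraries of the tagged lines lay above all other libraries, with a log2 fold change of 2.40 ± 0.27 (SE, FDR = 1.97e-06). Dazl, whose protein binds mRNA and licenses germ cells for meiosis, had 4.98 and 11 CPM with EtOH and 14.7 with IAA in line 10E, 6.54 and 11.5 with EtOH and 12 and 17.5 with IAA in line 11D, and 23.8, 16.2 and 10.3 without the tag. Its tagged IAA libraries lay above the EtOH libraries, for a log2 fold change of 0.73 ± 0.25 (SE, FDR = 0.0206), but within the range of the untagged line. Dnd1, which guards germ cell survival by binding mRNA, had 11.9 and 12.6 CPM with EtOH and 19.5 with IAA in line 10E, 13.1 and 8.78 with EtOH and 19.4 and 12.4 with IAA in line 11D, and 5.09, 7.92 and 9.22 without the tag. The groups overlapped through 1 11D IAA library, and the log2 fold change was 0.59 ± 0.20 (SE, FDR = 0.018).

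The other regulators of fate were not called. Sohlh2, a transcription factor of spermatogonia and oocytes, had 7.86 and 6.42 CPM with EtOH and 7.02 with IAA in line 10E, 7.16 and 8.51 with EtOH and 3.42 and 5.37 with IAA in line 11D, and 8.79, 8.43 and 8.57 without the tag. The 11D IAA libraries were the lowest of the 10 and the 10E IAA library was not low, and the log2 fold change was -0.48 ± 0.24 (SE, FDR = 0.102). Nanos3, a guardian of primordial germ cells, gave 0.24 ± 0.29, and Prdm1 (BLIMP1), which represses somatic genes in the founders of the germline, gave 0.11 ± 0.24. Prdm1 ranged from 4.05 to 7.35 CPM in EtOH and from 5.26 to 7.18 CPM in tagged IAA.

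Of the 8 piRNA genes 6 were tested, and 5 of these rose. Tdrd1 (chr19:56826209-56870012, plus strand), a Tudor scaffold that gathers PIWI proteins in germ granules, had 0.524 and 0.296 CPM with EtOH and 3.51 with IAA in line 10E, 0 and 0.358 with EtOH and 2.85 and 3.49 with IAA in line 11D, and 0.694, 0 and 0.745 without the tag. The IAA libraries were above all others, and the log2 fold change was 3.29 ± 0.48 (SE, FDR = 2.4e-05) on 11 counts in EtOH and 80 in IAA. Mov10l1, the helicase that feeds piRNA precursors into processing, had 2.36 and 0.296 CPM with EtOH and 5.70 with IAA in line 10E, 0.622 and 1.43 with EtOH and 4.85 and 7.44 with IAA in line 11D, and 1.39, 2.53 and 1.96 without the tag. These groups did not overlap, and the log2 fold change was 2.31 ± 0.44 (SE, FDR = 0.000319).

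Piwil2 (MILI), a PIWI protein that cuts transposon RNA, had 4.98 and 2.27 CPM with EtOH and 9.21 with IAA in line 10E, 1.87 and 2.51 with EtOH and 3.71 and 7.37 with IAA in line 11D, and 2.55, 2.36 and 2.05 without the tag. One 11D IAA library, at 3.71, lay below the highest EtOH library, at 4.98, and the log2 fold change was 1.37 ± 0.31 (SE, FDR = 0.00142). Tdrd9, a helicase and Tudor protein of the nuclear arm of the pathway, had 0.786 and 1.09 CPM with EtOH and 2.85 with IAA in line 10E, 0.622 and 2.42 with EtOH and 3.71 and 3.04 with IAA in line 11D, and 1.16, 0.843 and 2.24 without the tag. Its log2 fold change of 1.05 ± 0.39 (SE, FDR = 0.0324) was the least certain of the 5, with the highest EtOH library at 2.42 and the lowest IAA library at 2.85. Tex19.1, a mammalian protein that restrains retrotransposons, had 24.8 and 20.4 CPM with EtOH and 51.5 with IAA in line 10E, 12.1 and 16.6 with EtOH and 40.2 and 52.5 with IAA in line 11D, and 33.1, 31.2 and 22.9 without the tag. Its IAA libraries exceeded all EtOH and untagged libraries, for a log2 fold change of 1.45 ± 0.16 (SE, FDR = 1.29e-06). Mael, which acts in nuclear transposon silencing, stayed at 2.83 ± 1.22 CPM (SD, n = 4) in EtOH and 3.28 ± 0.568 CPM (SD, n = 3) in IAA and was not called.

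**Figure D2:**
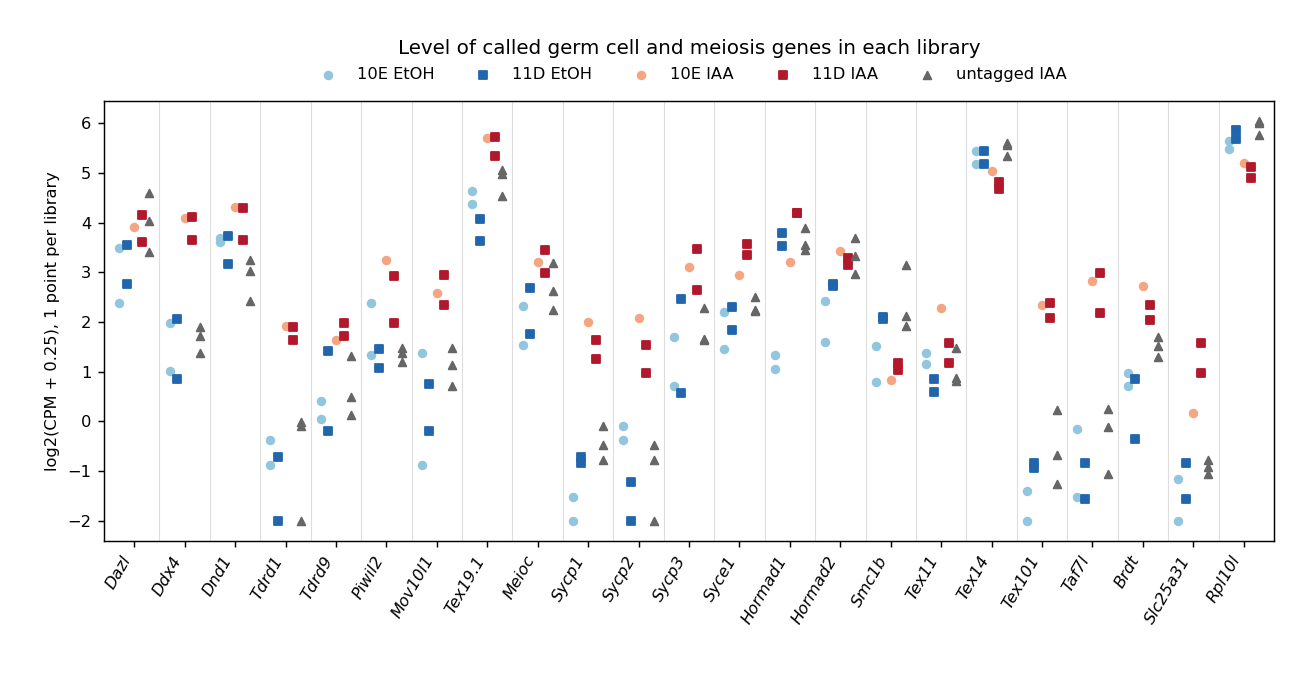
Levels of the 23 called genes in each of the 10 libraries, as log2(CPM + 0.25), with 1 point per library and colours and shapes for line and treatment. Tdrd1, Tex101 and Taf7l show IAA points of both tagged lines far above the EtOH and untagged points, whereas the Dazl and Hormad2 IAA points lie among the untagged ones.

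At meiotic entry, 1 of 2 genes rose. Meioc, which keeps germ cells in the meiotic program by acting on mRNA, had 4.71 and 2.67 CPM with EtOH and 8.99 with IAA in line 10E, 3.11 and 6.18 with EtOH and 7.70 and 10.7 with IAA in line 11D, and 8.79, 5.90 and 4.47 without the tag. The tagged IAA libraries were above the EtOH libraries, and the log2 fold change was 1.05 ± 0.27 (SE, FDR = 0.00337). Stra8, the retinoic acid target that starts meiosis, had 2.36 and 0.988 CPM with EtOH and 0.877 with IAA in line 10E, 1.56 and 1.08 with EtOH and 0.855 and 1.16 with IAA in line 11D, and 3.93, 2.70 and 2.79 without the tag. Tagged libraries of both treatments were lower than all 3 untagged libraries, and between EtOH and IAA no difference was called, at -0.41 ± 0.49 (SE, FDR = 0.488).

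Of the 7 synapsis genes, 6 rose. Sycp1 (chr3:102818499-102936100, minus strand), the transverse filament that zips homologues together, had 0 and 0.0988 CPM with EtOH and 3.73 with IAA in line 10E, 0.311 and 0.358 with EtOH and 2.85 and 2.13 with IAA in line 11D, and 0.694, 0.337 and 0.466 without the tag. The EtOH libraries held 6 counts in all and the IAA libraries 60, with no overlap and a log2 fold change of 3.79 ± 0.61 (SE, FDR = 6.55e-05). Sycp2 (chr2:178345293-178407685, minus strand), a partner of SYCP3 on the chromosome axis, had 0.524 and 0.692 CPM with EtOH and 3.95 with IAA in line 10E, 0 and 0.179 with EtOH and 1.71 and 2.65 with IAA in line 11D, and 0, 0.337 and 0.466 without the tag. Again the IAA libraries lay above all others, with 13 counts in EtOH, 65 in IAA and a log2 fold change of 3.09 ± 0.49 (SE, FDR = 6.24e-05). Syce1, a protein of the central element, had 2.49 and 4.35 CPM with EtOH and 7.46 with IAA in line 10E, 4.67 and 3.32 with EtOH and 9.98 and 11.6 with IAA in line 11D, and 4.40, 5.39 and 4.47 without the tag. Its IAA libraries did not overlap with the other groups, and the log2 fold change was 1.36 ± 0.25 (SE, FDR = 0.000233).

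Sycp3, the main protein of the axis, had 3.01 and 1.38 CPM with EtOH and 8.33 with IAA in line 10E, 1.24 and 5.29 with EtOH and 5.99 and 10.9 with IAA in line 11D, and 4.63, 2.86 and 2.89 without the tag. The lowest IAA library, at 5.99, stood only slightly above the highest EtOH library, at 5.29, and the log2 fold change was 1.46 ± 0.35 (SE, FDR = 0.00225). In the GENCODE annotation 52.2% of its exon bases overlap Chpt1 on the opposite strand, and the strand setting of the counting is not given in the sources used here, so reads of one gene may have been counted with the other. Chpt1 itself gave 0.07 ± 0.21 (FDR = 0.795). Syce2, another central element protein, ranged from 24.8 to 29.8 CPM in EtOH and from 21.3 to 25.1 CPM in IAA and was not called, at -0.25 ± 0.14 (SE, FDR = 0.125).

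The HORMA domain genes of the unsynapsed axis rose against EtOH, to 15 ± 5.18 CPM (SD, n = 3) for Hormad1 and 9.55 ± 0.989 CPM for Hormad2, beside 12.2 ± 2.09 and 10.0 ± 2.58 CPM in the untagged line. Hormad1, which guides break formation, had 1.83 and 2.27 CPM with EtOH and 8.99 with IAA in line 10E, 11.2 and 13.5 with EtOH and 18 and 18 with IAA in line 11D, and 14.6, 11.5 and 10.6 without the tag. In EtOH the 10E libraries were low and the 11D libraries were close to the untagged range. The log2 fold change over both lines was 0.97 ± 0.26 (SE, FDR = 0.00423), with 2.10 ± 0.34 (SE, FDR = 0.000403) within 10E and 0.50 ± 0.22 (SE, FDR = 0.0711) within 11D. Of its 50-base words, 22.9% occur also in the annotated relatives Gm15529 and Gm7167. Hormad2, which marks unsynapsed axes for surveillance, had 5.11 and 2.77 CPM with EtOH and 10.5 with IAA in line 10E, 6.54 and 6.36 with EtOH and 8.55 and 9.57 with IAA in line 11D, and 12.7, 7.58 and 9.78 without the tag. The IAA libraries were above the EtOH libraries and inside the untagged range, and the log2 fold change was 0.87 ± 0.25 (SE, FDR = 0.00828).

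None of the 3 meiotic cohesin subunits rose. Smc1b, the meiotic SMC1, had 2.62 and 1.48 CPM with EtOH and 1.54 with IAA in line 10E, 4.05 and 3.94 with EtOH and 2.00 and 1.81 with IAA in line 11D, and 8.56, 3.54 and 4.10 without the tag. The lower values in IAA overlapped those of 10E in EtOH, and the log2 fold change was -0.90 ± 0.36 (SE, FDR = 0.0407). Stag3 had 43.7 and 45.9 CPM with EtOH and 33.8 with IAA in line 10E, 43.3 and 42.6 with EtOH and 40.8 and 41.5 with IAA in line 11D, and 50.2, 43.8 and 45.9 without the tag. Its IAA libraries all lay below the EtOH libraries by little, and the difference was not called, at -0.20 ± 0.12 (SE, FDR = 0.153). Rec8, the meiotic kleisin, ranged from 24.4 to 35.2 CPM in EtOH and from 26.1 to 36.6 CPM in IAA, at 0.13 ± 0.13 (SE, FDR = 0.398).

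Among recombination genes, Tex11 rose and Dmc1 and Tex15 were not called. Tex11, an X-linked protein that promotes crossovers, had 2.36 and 1.98 CPM with EtOH and 4.61 with IAA in line 10E, 1.56 and 1.25 with EtOH and 2.00 and 2.72 with IAA in line 11D, and 2.55, 1.52 and 1.58 without the tag. The 10E IAA library was the highest and 1 11D IAA library fell inside the EtOH range, with a log2 fold change of 0.98 ± 0.33 (SE, FDR = 0.0178). Dmc1, the meiotic recombinase, ranged from 9.09 to 16.9 CPM in EtOH and from 10.3 to 11.4 CPM in IAA, at -0.08 ± 0.22. Tex15, needed for recombination and for transposon methylation, had 38.5 and 56.5 CPM with EtOH and 60.3 with IAA in line 10E, 71.6 and 78.2 with EtOH and 67.5 and 78.4 with IAA in line 11D, and 90.0, 78.4 and 81.2 without the tag. It had the highest mean CPM of the 39 genes in each of the 3 groups, its 10E EtOH libraries were the lowest, and the log2 fold change was 0.10 ± 0.13 (SE, FDR = 0.513).

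The largest changes of the 35 came from testis products. Tex101 (chr7:24668007-24676675, minus strand), a surface protein of male germ cells, had 0.131 and 0 CPM with EtOH and 4.83 with IAA in line 10E, 0.311 and 0.269 with EtOH and 3.99 and 4.98 with IAA in line 11D, and 0.926, 0.169 and 0.373 without the tag. It had 5 counts over the EtOH libraries and 113 over the IAA libraries, which lay above all others, for a log2 fold change of 4.72 ± 0.52 (SE, FDR = 1.42e-06). Taf7l (chrX:134460118-134476490, minus strand), the X-linked testis form of a TFIID subunit, had 0.655 and 0.0988 CPM with EtOH and 6.80 with IAA in line 10E, 0.311 and 0.0896 with EtOH and 4.28 and 7.63 with IAA in line 11D, and 0.231, 0.674 and 0.932 without the tag. The counts were 8 in EtOH and 164 in IAA, again without overlap, and the log2 fold change was 4.67 ± 0.49 (SE, FDR = 8.74e-07). Slc25a31 (chr3:40708855-40726096, plus strand), the ADP/ATP carrier of sperm mitochondria, had 0 and 0.198 CPM with EtOH and 0.877 with IAA in line 10E, 0.311 and 0.0896 with EtOH and 1.71 and 2.72 with IAA in line 11D, and 0.231, 0.337 and 0.279 without the tag. With 4 counts in EtOH and 52 in IAA, its groups were apart and its log2 fold change was 3.50 ± 0.69 (SE, FDR = 0.000406).

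Brdt, the testis bromodomain protein that compacts acetylated chromatin, had 1.70 and 1.38 CPM with EtOH and 6.36 with IAA in line 10E, 1.56 and 0.538 with EtOH and 4.85 and 3.88 with IAA in line 11D, and 3.01, 2.19 and 2.61 without the tag. All IAA libraries stood above the EtOH and untagged libraries, and the log2 fold change was 2.18 ± 0.35 (SE, FDR = 7e-05). Rpl10l, a retrogene copy of the ribosomal protein gene Rpl10 that takes over in meiosis, had 44.5 and 49.8 CPM with EtOH and 36.2 with IAA in line 10E, 58.2 and 51.3 with EtOH and 34.5 and 29.7 with IAA in line 11D, and 63.9, 54.1 and 65.3 without the tag. The tagged IAA libraries were the lowest, with a log2 fold change of -0.63 ± 0.13 (SE, FDR = 0.000464), and 7.60% of its 50-base words occur also in Gm14460. Tex14, which keeps the bridges between germ cells open, had 43.3 and 36 CPM with EtOH and 32.5 with IAA in line 10E, 36.1 and 43.1 with EtOH and 25.4 and 28.1 with IAA in line 11D, and 47.9, 40.1 and 47.1 without the tag. Here too the IAA libraries were below the others, and the log2 fold change was -0.47 ± 0.13 (SE, FDR = 0.0068). Dpep3, a testis dipeptidase, gave 1.13 ± 0.63 (SE, FDR = 0.132) on 16 counts in EtOH and 36 in IAA. Zp3, a protein of the egg coat, ranged from 10.8 to 13.9 CPM in EtOH and from 6.80 to 10.8 CPM in IAA, at -0.41 ± 0.20 (SE, FDR = 0.0906).

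The 3 losses depended on the scaling, and that of Smc1b on other choices as well. Of 15 alternatives, Rpl10l was called in 14, Tex14 in 13 and Smc1b in 6. With library totals alone the median of all genes moved from 0.03 to 0.36 and the calls of all genes from 51.0% to 73.0% higher, and Rpl10l, Tex14 and Smc1b gave -0.29 (FDR = 0.0588), -0.14 (FDR = 0.438) and -0.57 (FDR = 0.199). The 20 gains were all called under that scaling too. It moved changes upward and called 7713 of all 17904 genes higher, so it could hardly remove a gain. Without the single 10E IAA library, 12 of the 20 gains were called, and those lost were Hormad1, Hormad2, Sycp3, Meioc, Tdrd9, Dazl, Dnd1 and Tex11. Ddx4, Tdrd1, Piwil2, Mov10l1, Tex19.1, Sycp1, Sycp2, Syce1, Tex101, Taf7l and Brdt were called in all 15 alternatives computed. In the authors' deposited table an adjusted p is given for 37 of the 39 genes, and 17 of them are higher and 2 lower at the same threshold. Of all 21210 genes with an adjusted p there, 3977 are higher and 3781 lower.

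The tagged IAA libraries were also compared with the untagged IAA libraries, where both sides received IAA and the lines differ. This comparison shares its tagged IAA libraries with the one above. Of the 35 genes, 16 were higher, 6 were lower and 13 were not called, where 27.9% of all 17439 genes tested were higher and 27.8% lower. Tex101 was higher by 3.39 ± 0.50 (SE, FDR = 3.68e-05), Taf7l by 3.21 ± 0.47 (SE, FDR = 3.53e-05), Sycp2 by 3.16 ± 0.58 (SE, FDR = 0.000267) and Tdrd1 by 2.68 ± 0.59 (SE, FDR = 0.0012). Ddx4 was higher by 2.49 ± 0.31 (SE, FDR = 7.09e-06), against 2.40 ± 0.27 when the reference was EtOH. Dpep3 had 0.393 and 0 CPM with EtOH and 0.877 with IAA in line 10E, 0.622 and 0.986 with EtOH and 0.855 and 1.88 with IAA in line 11D, and 0.231, 0.169 and 0.373 without the tag. It was called here, at 2.00 ± 0.81 (SE, FDR = 0.048), on 6 counts in the untagged line.

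For 9 genes the 2 references gave different calls, of which 5 were called higher against EtOH alone and 4 (Dpep3, Stra8, Sohlh2 and Stag3) were called against the untagged line alone. Dazl was 0.73 ± 0.25 against EtOH and -0.11 ± 0.32 (SE, FDR = 0.787) against the untagged line. Hormad1 was 0.97 ± 0.26 and 0.08 ± 0.20 (SE, FDR = 0.751), and Hormad2 was 0.87 ± 0.25 and -0.01 ± 0.25 (SE, FDR = 0.978). Meioc was 1.05 ± 0.27 and 0.61 ± 0.31 (SE, FDR = 0.11), and Tdrd9 was 1.05 ± 0.39 and 0.97 ± 0.46 (SE, FDR = 0.0838). The genes lower than in the untagged line were Stra8 at -1.63 ± 0.46 (SE, FDR = 0.00742), Smc1b at -1.59 ± 0.42 (SE, FDR = 0.00432), Rpl10l at -0.85 ± 0.13 (SE, FDR = 4.72e-05), Tex14 at -0.61 ± 0.14 (SE, FDR = 0.00158), Sohlh2 at -0.57 ± 0.23 (SE, FDR = 0.0417) and Stag3 at -0.32 ± 0.12 (SE, FDR = 0.0279). With library totals alone 3 of the 35 genes were lower, where 3006 of all 17439 genes were lower and 6899 higher.

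The tagged lines in EtOH were then set against the untagged line in IAA, where tag and treatment differ together and both sides share libraries with the comparisons above. None of the 35 genes was higher and 4 were lower in edgeR, where 1.27% of all genes were higher and 2.29% lower. DESeq2, which gave an adjusted p for 18 genes of the set, called 0 of them higher and 5 lower. Of all 11373 genes with an adjusted p there, it called 341 higher and 518 lower. At an unadjusted p under 0.05 edgeR gave 2 higher and 12 lower, where 3886 of all 17439 genes passed in either direction. The 4 lower genes were Hormad1 at -1.23 ± 0.19 (SE, FDR = 0.00592), Hormad2 at -0.99 ± 0.23 (SE, FDR = 0.033), Tex19.1 at -0.65 ± 0.16 (SE, FDR = 0.0426) and Tex15 at -0.47 ± 0.12 (SE, FDR = 0.0466). Leaving out single libraries left between 1 and 4 of these calls. Dazl gave -0.87 ± 0.29 (SE, FDR = 0.103) and Stra8 -1.12 ± 0.37 (SE, FDR = 0.0939), with all 4 EtOH libraries of Stra8 below all untagged libraries.

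Within single lines, 15 of the 35 genes rose and 1 fell in 10E, and 14 rose and 4 fell in 11D. Of all genes tested, 17.1% rose and 18.3% fell in 10E, and 23.1% rose and 23.1% fell in 11D. The 10E comparison has 1 IAA library, which is assumed to vary like the other groups. Ddx4 changed by 2.65 ± 0.43 (SE, FDR = 0.000419) in 10E and by 2.22 ± 0.37 (SE, FDR = 0.000296) in 11D, and Tex19.1 by 1.18 ± 0.23 (SE, FDR = 0.00148) and 1.65 ± 0.20 (SE, FDR = 2.65e-05). The difference between the lines in the effect of IAA was called for 0 of the 35 genes and 0 of 17904 genes in edgeR, and for 0 of the set and 1 gene in all in DESeq2. At an unadjusted p under 0.05 edgeR gave 872 genes, among them Hormad1 (1.59 ± 0.40, FDR = 0.938) and Sycp1.

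Before IAA the lines differed at Hormad1. In a comparison of 10E with 11D in EtOH, added after the values were seen, Hormad1 gave -2.59 ± 0.26 (SE, FDR = 0.000177) and was the 1 gene of the 35 called, where 1.28% of all genes were higher and 1.95% lower. Tex15 was next at -0.65 ± 0.17 (SE, FDR = 0.0505).

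Per kilobase of exon, the genes were put in order of the counts assigned to them. Close copies, such as Rpl10 for Rpl10l, were looked for only as exact 50-base words. In EtOH Rpl10l led at 49.8 ± 5.51 CPM per kb (SD, n = 4), followed by Syce2 at 13.9 ± 1.06. Tex19.1 at 9.86 ± 2.87, Rec8 at 9.71 ± 1.72 and Zp3 at 9.25 ± 0.982 came next and lay within each other's spread. At the other end Spo11, Mei1, Asz1 and Piwil4, which were not tested, had 0.0114 to 0.0544 CPM per kb. Among the tested genes the lowest were Sycp1 at 0.0540 ± 0.0480, Tdrd1 at 0.0541 ± 0.0402 and Sycp2 at 0.0584 ± 0.0529, which did not differ beyond their spread. In tagged IAA (n = 3) Rpl10l at 32.7 ± 3.30 and Tex19.1 at 25.7 ± 3.66 led, and Taf7l moved from rank 30 to rank 18 of 39, at 2.78 ± 0.778. Tex101 moved from rank 31 to rank 19, at 2.77 ± 0.321, and Stra8 from 22 to 33.

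The change of a gene went with its level in the untagged line, both in this set and in the table as a whole. Under 2 CPM in the untagged line, 9 of 11 tested genes of the set rose and 0 fell, where 45.2% of all such genes rose and 4.68% fell. Between 2 and 10 CPM, 7 of 13 rose and 1 fell, where 30.9% of all genes rose and 18.9% fell. At 10 CPM or more, 4 of 11 rose and 2 fell, where 20.7% of all genes rose and 43.4% fell. A gene under 2 CPM can be tested only where it is high enough in a tagged group, so the first stratum favours gains.

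**Figure D3:**
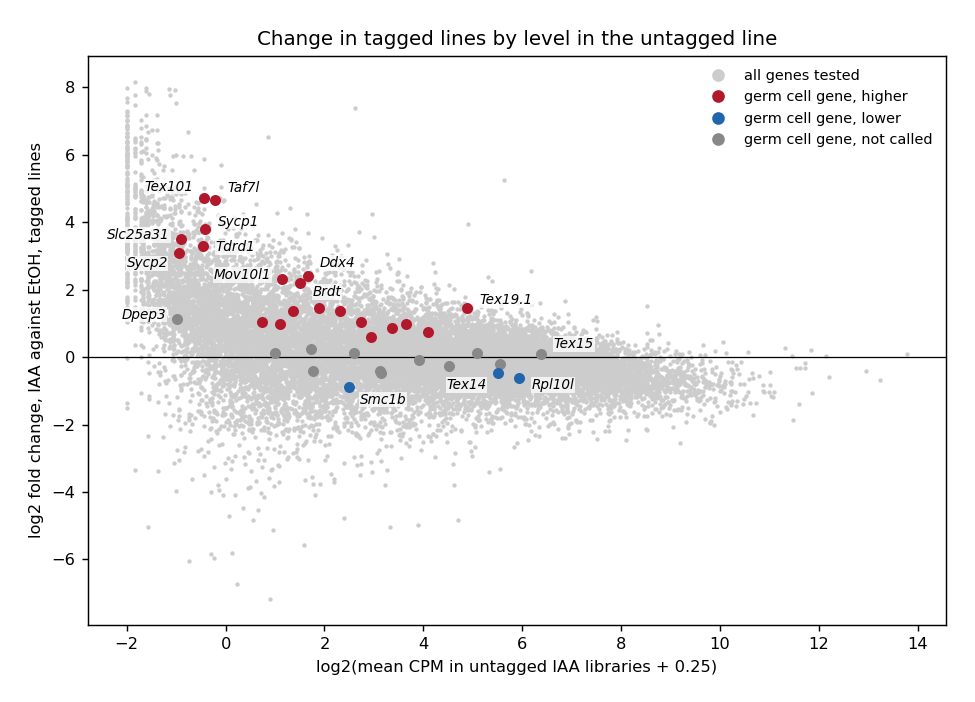
Log2 fold change of tagged IAA against EtOH plotted over log2(mean CPM in the untagged IAA libraries + 0.25) for all genes tested (grey) and for the 35 germ cell and meiosis genes (coloured by call). Genes with little RNA in the untagged line reach the highest changes, and Tex19.1 is the gene of the set that rose from the highest untagged level, at 29.1 CPM.

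Several of the genes have broadly expressed counterparts. Of the 12 counterparts tested and reported here, all above 10 CPM in the untagged line, 1 rose and 9 fell. Of all genes at that level 43.4% fell. With library totals alone 3 counterparts rose and 7 fell, where 7713 of all 17904 genes rose and 2851 fell. Among cohesins, Rad21, the counterpart of Rec8, fell by 1.33 on the log2 scale, Stag1 by 1.58, Stag2 by 0.70 and Smc1a by 0.39, while Rec8 gave 0.13 ± 0.13 and Stag3 -0.20 ± 0.12. Smc1b, at -0.90 ± 0.36, fell as Smc1a did. The bromodomain genes Brd2 (0.07 ± 0.11) and Brd3 (0.17 ± 0.09) were not called, beside Brdt at 2.18 ± 0.35.

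Slc25a4 and Slc25a5, the somatic ADP/ATP carriers, fell by 0.71 and 0.88, beside Slc25a31 at 3.50 ± 0.69. Mov10 fell by 0.43, beside Mov10l1 at 2.31 ± 0.44, and Ddx3x fell by 0.80, beside Ddx4 at 2.40 ± 0.27. Taf7 was the counterpart that rose, at 0.52 ± 0.10 (FDR = 0.000546), beside Taf7l at 4.67 ± 0.49. Rpl10 and Rpl10l gave -0.63 ± 0.10 and -0.63 ± 0.13. Dpep2 was not tested. The differences within pairs were not tested.

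**Figure D4:**
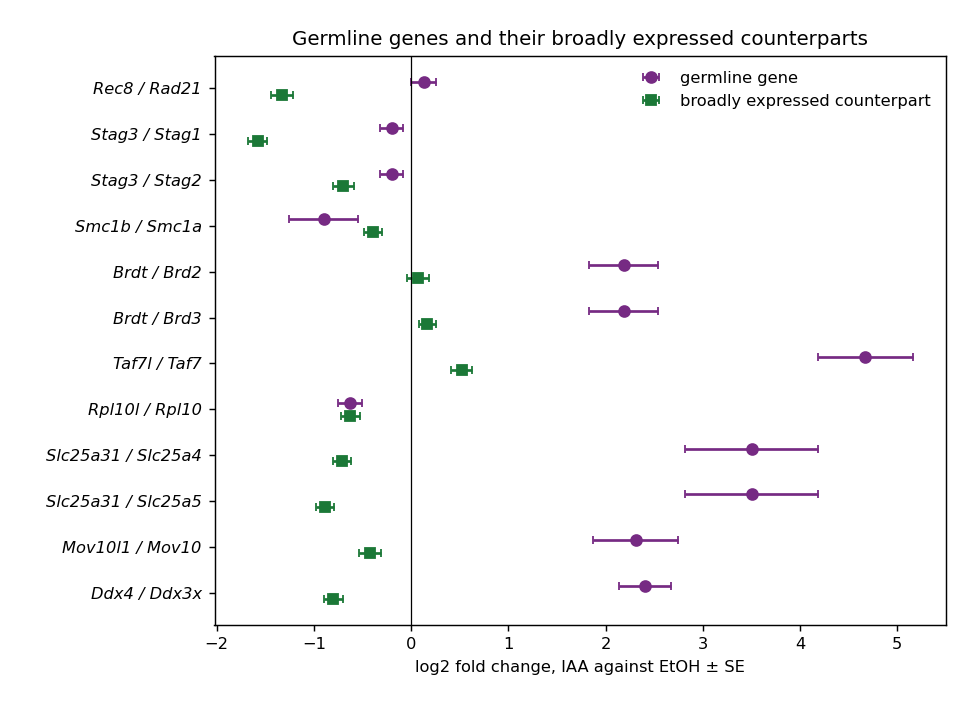
Log2 fold change ± SE of tagged IAA against EtOH for germline genes (circles) and their broadly expressed counterparts (squares), 1 row per pair. The circles of Taf7l, Slc25a31, Ddx4, Mov10l1 and Brdt lie right of 2, while 9 of the 12 squares are called lower.

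Other genes of the same pathways, taken from wider lists, moved in both directions. Of 19 tested recombination and synapsis genes 8 rose and 5 fell, where 29.3% of all genes tested rose and 28.1% fell. Msh5, which stabilises crossover intermediates, went from 3.27 ± 0.348 to 19.5 ± 3.56 CPM, at 2.51 ± 0.20, Shoc1, a crossover factor, gave 2.02 ± 0.33, and Terb2, which ties telomeres to the nuclear envelope, gave 1.46 ± 0.33. Hsf2bp, a partner of BRCA2 in meiosis, fell by 1.84, Ccnb1ip1 (HEI10) by 0.98 and Mlh3 by 0.55. Of 12 tested piRNA genes 4 rose and 2 fell: Tex19.2 gave 3.33 ± 0.48, Tdrkh 2.13 ± 0.49 and Fkbp6 1.34 ± 0.21, whereas Pld6 fell by 0.88 and Tdrd12 by 0.38.

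Primordial germ cell genes, many of which embryonic stem cells express, mostly fell, with 2 of 11 higher and 7 lower. Of all genes tested, 29.3% were higher and 28.1% lower. Nanos1 gave 1.43 ± 0.20 and Dppa3 (STELLA) 2.10 ± 0.35, while Kit fell by 1.74, Tcl1 by 1.10 and Pou5f1 by 1.03. Of 16 oocyte genes 1 was tested, and this gene, Ooep, fell by 1.02. Of 13 tested genes of spermatocytes and spermatids, from a list of 30, 7 rose and 2 fell. Hspa2, a testis chaperone, went from 11.8 ± 2.29 to 93.3 ± 20.1 CPM, at 3.06 ± 0.14, Dkkl1 gave 2.55 ± 0.46 and Ybx2 1.38 ± 0.24, and Odf2 fell by 0.69 and H1f6 by 2.29. With library totals alone the same lists gave 10 higher and 3 lower of the 19, 4 and 0 of the 12, 2 and 6 of the 11, and 8 and 2 of the 13. Under that scaling 7713 of all 17904 genes were higher and 2851 lower.

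Genes whose proteins are known to keep germline genes silent mostly fell. Of 25 tested, 1 rose and 17 fell, with a median of -0.35. With library totals alone the counts were 4 and 9 and the median -0.01. Under that scaling 7713 of all 17904 genes rose and 2851 fell, with a median of 0.36. Under TMM scaling 29.3% of all genes tested rose and 28.1% fell. At 10 CPM or more in the untagged line, where all of the 25 but Ring1 and Yaf2 lay, 20.7% rose and 43.4% fell. Rybp, a subunit of variant Polycomb complexes, went from 125 ± 15 to 36.3 ± 8.17 CPM, at -1.86 ± 0.13 (SE, FDR = 1.13e-08). Wdr5 gave -1.43 ± 0.10 and Uhrf1, the partner of the maintenance methyltransferase DNMT1, -1.29 ± 0.10. E2f6 was the gene that rose, from 22 ± 2.74 to 35.5 ± 6.59 CPM, at 0.67 ± 0.16 (SE, FDR = 0.00183). Mga, chosen after its value was seen because it anchors a variant Polycomb complex on DNA, went from 629 ± 40.3 to 324 ± 21.4 CPM, at -0.98 ± 0.09 (SE, FDR = 2.88e-07). Of 5 genes for DNA demethylation and its partners 4 fell, among them Tet1 by 1.45, Tet2 by 1.74 and Ogt by 0.83.

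Markers of other cells moved in the same libraries, where 29.3% of all genes tested rose and 28.1% fell. All 8 embryonic stem cell markers fell, with a summed level of 7158 to 8854 CPM with EtOH and 2849 to 3174 CPM with IAA in the tagged lines, and 7573 to 8173 CPM without the tag. All 9 tested markers of 2-cell-like cells, from a list of 11, rose, with sums of 15.3 to 40.4, 71.8 to 136 and 13.7 to 20.6 CPM. Of 8 markers of Sertoli and granulosa cells, the somatic partners of germ cells, 5 were tested and 3 rose (Amhr2, Sox9 and Foxl2), with sums of 8.78 to 12.8, 15.7 to 20.2 and 4.63 to 8.59 CPM, and Fshr was at 0 in every library. Of 8 markers each, primitive endoderm gave 2 higher and 1 lower of 5 tested, trophectoderm 2 and 1 of 6, and fibroblasts 0 of 4, with Postn at 0. As a group that these cells should not use, 1779 chemosensory receptor genes summed to 53.2 to 80.9 CPM with EtOH and 94.3 to 106 CPM with IAA in the tagged lines, and 73.2 to 118 CPM without the tag. The transcript CT010467.1 took 2.64% and 4.27% of counts in 10E EtOH replicate 2 and 11D EtOH replicate 1, and 0.129% to 1.58% elsewhere, and without these libraries 19 genes of the set rose and 3 fell. The part of these markers and transcripts in the changes of the germ cell genes was not tested.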

How the data were processed

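Per the labels' protocols, total RNA went into NEBNext Directional libraries. STAR, deepTools and the mm10 build appear in the submitters' processing notes. Not given in the sources used here: their versions, the read counter, the annotation and the strand setting. The authors deposited whole-number counts per gene without normalization, and a comparison table with log2 fold changes, their standard errors and adjusted p-values, per the file headers. There are 11 labelled samples, 12 libraries in the design text and 10 columns, so 7 tagged libraries were analysed where 8 had been planned for. The TIR1 columns were taken as untagged since, like the untagged samples of the labels, they alone reach replicate 3 and lack EtOH. Separate cultures are not stated, so the spread behind the p-values may be technical.

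The quasi-likelihood F test of edgeR 4.0.16 (R 4.3.3) was run on the counts with TMM and filterByExpr (minimum count 10), with Benjamini-Hochberg adjustment over all genes tested. The 7 tagged libraries entered the test of IAA, which had a line term. The untagged comparisons used all 10 libraries with 1 coefficient per line and treatment. SE was obtained from the log2 fold change and its F statistic. The script was tested on simulated data. Alternatives were DESeq2 1.42.0, other scaling, no filter, no line term, a replicate block and leaving out libraries. Deviations of same-numbered libraries gave r of -0.22 (10E EtOH, 11D EtOH), -0.14 (10E EtOH, 11D IAA) and 0.25 (11D EtOH, 11D IAA). The last of these pairs lies within 1 line and was positive. The numbers were used as pairs only in the replicate block. The members and lists were chosen with earlier results of these data known. All 39 members are named, with values in every library for those called between IAA and EtOH and reaching a group mean of 1 CPM, or called only against the untagged line. Up to 3 called genes per direction were named from each other list, and the counterparts, of which some are not reported here. Coordinates, exon overlaps and lengths come from GENCODE vM21 on GRCm38, the assembly also called mm10. Exons of Dnd1 and Dpep3 overlap Wdr55 (5.80%) and Gm45752 (7.01%) on the opposite strand.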

Additional observations from a re-analysis of the deposited data

Results flagged for a closer look

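Spo11 had 0.179 CPM (2 counts) in 11D EtOH replicate 2 and 0 in the other 3 tagged EtOH libraries, which set this library apart from its group. Among 39 such groups 1 was set apart in this way. Where the other libraries are at 0, any read at all is set apart. The usual rate of about 1 of 20 groups therefore does not apply here.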

How the results depend on the processing

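The 20 genes of the set that rose against EtOH numbered 18 in DESeq2, 22 with library totals alone (with Tex15 and Rec8), 17 without the line term and 12 to 20 when single libraries were left out. Without 10E IAA replicate 1, the line's only IAA library, the count was 12 and the median log2 fold change of the genes of the set tested was 0.60. The 3 that fell numbered 0 with library totals alone and 1 to 3 without single libraries, and without 11D EtOH replicate 2 only Rpl10l remained called. Over all genes, 5247 rose and 5034 fell, and with library totals alone 7713 rose and 2851 fell. Against the untagged line, 6 genes of the set were lower, 3 with library totals alone and 4 to 7 without single libraries. The 4 lower in EtOH than in the untagged line numbered 1 to 4 without single libraries, with 1 left without 11D EtOH replicate 1, 11D IAA replicate 1, 11D IAA replicate 2 or untagged IAA replicate 1 and 2 left without 10E EtOH replicate 1 or untagged IAA replicate 2. The cause of these shifts was not tested. With the replicate block 20 genes rose and 3 fell against EtOH, and 13 were higher and 4 lower than in the untagged line. No called gene of the set changed direction in any alternative. Slc25a31 gave no value without 11D IAA replicate 2, where it was below the filter. In the alternative chosen after seeing the data, without both EtOH libraries richest in CT010467.1, 19 rose and 3 fell. Precision of the genes that rose most is limited by counts, since Tex101, Sycp1, Slc25a31 and Taf7l had 5, 6, 4 and 8 counts over the EtOH libraries. Intervals and SE of these genes are wide for that reason.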
